A study of Mus musculus with 8 samples.

Results

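The mitochondrial ribosomal protein genes are the nuclear genes whose symbols begin with Mrpl or Mrps and a digit, for the large and the small subunit. The count tables hold 76 of them among 23284 genes, 47 large and 29 small subunit genes by symbol alone. All 76 passed the filter on low counts that left 15106 genes for testing. They were set between retinas of mice labelled Rb null that carry TET-MYCN (4 libraries, TET-MYCN 1 to 4) and retinas labelled Rb null alone (4 libraries, Rb-null 1 to 4), which asks how these genes differ when MYCN overexpression is added to loss of Rb. All mice were at postnatal day 12, and all carried a Cre driven by the Pax6 alpha enhancer. The Rb-null mice were homozygous for a floxed Rb1 allele (Rblox/lox). The TET-MYCN mice carried Rosa26LSL-RTTA, a transactivator that Cre switches on, and TRE-MYCN, which it drives. The genotype label of the TET-MYCN mice also reads Rb null, though floxed Rb1 is not named again in the series' design text. That text mentions no doxycycline, and the species of the MYCN sequence is not given in the sources used here. The tissue was peripheral retina cut out under the microscope, so other eye cells and retinal cells without recombination are included. Whether the libraries come from different animals is not stated in the labels, so a p-value here reflects only how much these 8 libraries varied, which may be technical.

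Mitochondrial ribosomes translate the proteins encoded by mitochondrial DNA, which are core subunits of the respiratory chain complexes and of ATP synthase. Their RNA is made inside the organelle, but all their proteins are encoded in the nucleus, made by cytosolic ribosomes and imported. Some of the proteins have counterparts in bacterial ribosomes and others are found in mitochondria only. MYC family proteins bind E-boxes and are known to act on genes of ribosome production and of mitochondrial biogenesis, and photoreceptors of the retina are rich in mitochondria.

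The libraries held 16166000 to 22873979 reads in genes in the TET-MYCN group and 14872131 to 20007977 in the Rb-null group. Levels are in CPM, read counts relative to library size, scaled by trimmed mean of M values (TMM), and a fold change is TET-MYCN over Rb-null with its standard error (SE). Mouse Mycn had 201, 219, 272 and 276 CPM in TET-MYCN 1 to 4, against 246, 339, 108 and 232 CPM in Rb-null 1 to 4, so the groups overlapped. Rb1, counted over the whole gene, had 123 to 179 CPM in TET-MYCN and 138 to 184 CPM in Rb-null libraries; such counts do not check a transgene or a deleted exon. The 8 retinal markers used to check the tissue label summed to 2697 to 4942 CPM in TET-MYCN and 3414 to 10111 CPM in Rb-null libraries. Library TET-MYCN 3 stood apart from the rest, and values without it are given beside those that moved with it.

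As MYC family factors bind E-boxes, and NRF1, ETS-family GABP and YY1 are known to act at promoters of nuclear genes for mitochondria, each member's promoter was searched for 4 short letter strings on both strands. RefSeq promoter sequences (GRCm38.p6, 250 bases before to 50 after the start, 300 in all) matched 67 of the 76 genes by symbol. The E-box CACGTG was in 5 of the 67 (7.46%), against 7.24% of the 27025 promoters in the table. The NRF1 core GCATGCGC was in 8 (11.9%, against 2.80%), the ETS core CCGGAAG in 23 (34.3%, against 9.12%) and the YY1 core AAGATGGC in 12 (17.9%, against 2.88%). At least 1 of NRF1, ETS and YY1 was in 35 (52.2%, against 13.8%). The 27025 promoters were not limited to genes tested here, so these shares do not compare the members with expressed genes alone. A match describes letters and shows no binding, and the strings were searched separately, so matches of different strings may overlap. The 150 bases before the start are given for 5 members, 5′ to 3′ on the gene's strand, with matches in capitals. Mrpl36 (chr13:73330859-73331008, plus strand) is shown as a member with an E-box beside a YY1 match, Mrpl32 (chr13:14613038-14613187, minus strand) for its overlapping NRF1 matches, Mrpl52 (chr14:54426759-54426908, plus strand) and Mrpl34 (chr8:71464776-71464925, plus strand) for an ETS match, and Mrps15 (chr4:126046778-126046927, plus strand), which had the smallest p of all members, as one with no match.
Mrpl36: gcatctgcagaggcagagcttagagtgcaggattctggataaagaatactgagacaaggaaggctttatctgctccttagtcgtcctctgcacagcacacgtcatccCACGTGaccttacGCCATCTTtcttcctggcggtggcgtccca
Mrpl32: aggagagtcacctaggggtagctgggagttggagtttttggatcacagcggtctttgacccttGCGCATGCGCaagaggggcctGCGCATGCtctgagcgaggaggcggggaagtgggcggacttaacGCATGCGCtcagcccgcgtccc
Mrpl52: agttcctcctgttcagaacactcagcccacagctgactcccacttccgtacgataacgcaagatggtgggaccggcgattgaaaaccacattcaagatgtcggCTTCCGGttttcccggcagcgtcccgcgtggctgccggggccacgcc
Mrpl34: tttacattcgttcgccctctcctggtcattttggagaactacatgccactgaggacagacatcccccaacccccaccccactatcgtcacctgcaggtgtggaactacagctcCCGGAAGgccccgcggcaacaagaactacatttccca
Mrps15: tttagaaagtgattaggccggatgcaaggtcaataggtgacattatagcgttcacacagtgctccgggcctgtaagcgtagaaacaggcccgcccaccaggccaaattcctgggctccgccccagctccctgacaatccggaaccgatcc

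No mitochondrial ribosomal protein gene passed the test. Under edgeR's quasi-likelihood test with Benjamini-Hochberg adjustment over all 15106 genes, 0 of 76 had an adjusted p under 0.05, and the smallest was 0.220 (Mrps15). Only 0.0596% of all genes passed that test. An unadjusted p under 0.05 was found for 6 of 76 members, all higher in TET-MYCN. That is a smaller share than the 15.8% of all genes. DESeq2 called 0 members too, while it called 3.71% of all genes, and limma-voom called 0 members and 0 genes; each gave 6 members at an unadjusted p under 0.05. SEs ran from 0.09 to 0.21 on the log2 scale, with a median of 0.14, which sets the size of change that 4 libraries a group could show.

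Most members had higher values in the TET-MYCN group all the same, by little. A positive log2 fold change was found for 68 of 76, against 52.2% of all genes, with a median of 0.12, against 0.01 over all genes. By subunit, 42 of 47 large and 26 of 29 small subunit genes were positive, with medians of 0.12 and 0.13. Values were under 0.2 in size for 58 members and over 0.3 for 6. Groups that did not overlap, with TET-MYCN higher, were found for 1 member, Mrpl19, against 4.36% of all genes, and 0 members lay wholly lower, against 3.29%.

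**Figure D1:**
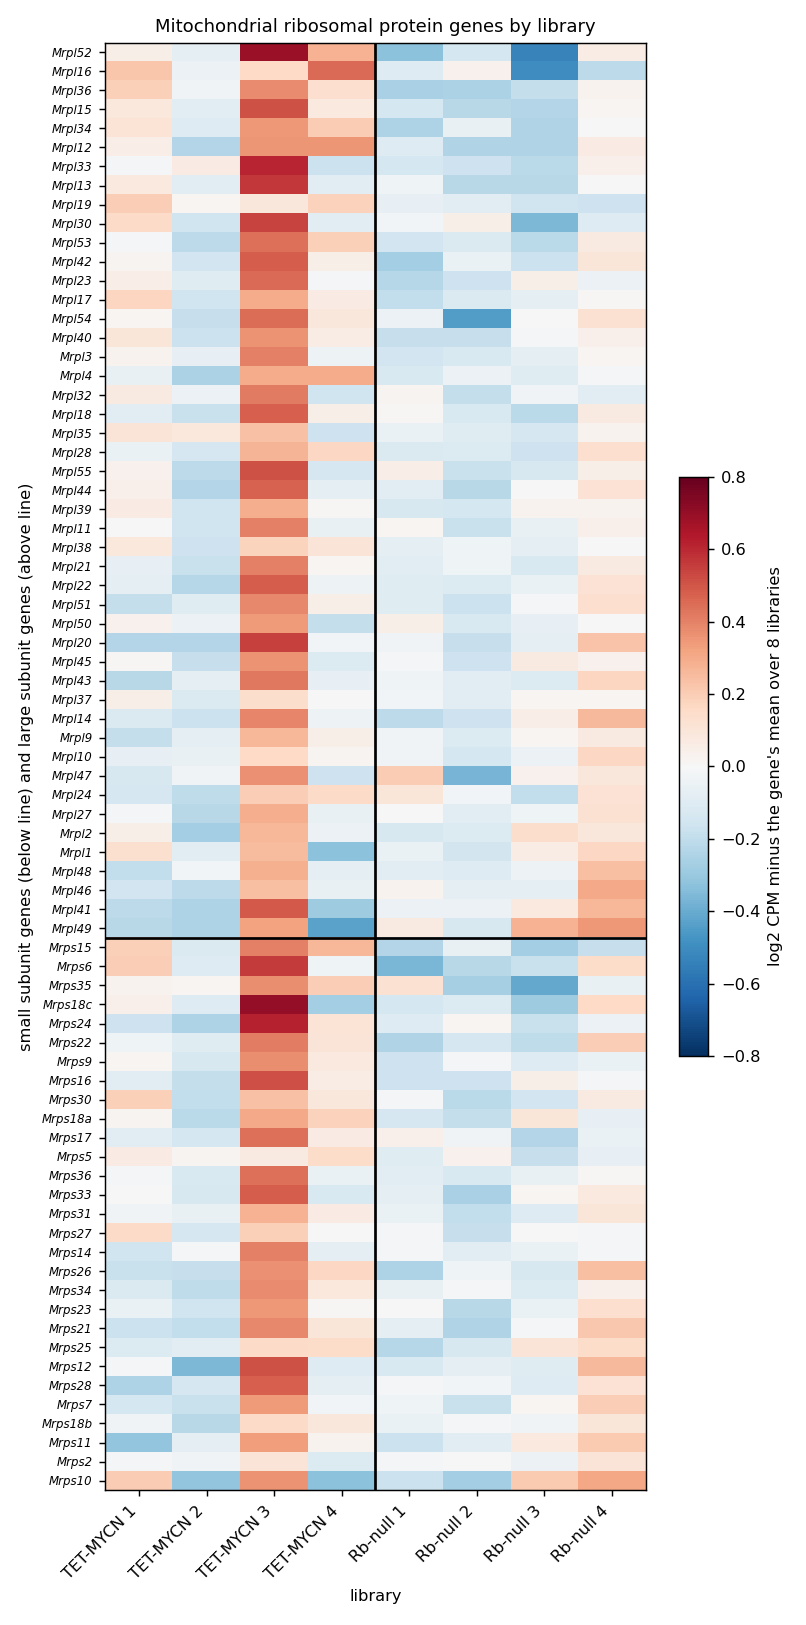
Heat map of the 76 genes (rows, large subunit above the line, each subunit ordered by log2 fold change) in the 8 libraries (columns, TET-MYCN left). Colour is log2 CPM minus the gene's mean over the 8 libraries, red above and blue below. The TET-MYCN 3 column is red in nearly every row.

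In the mean over all members, 1 library stood apart. Mean log2 CPM over the 76 genes was 5.005, 4.88, 5.39 and 5.03 in TET-MYCN 1 to 4, against 4.93, 4.89, 4.93 and 5.09 in Rb-null 1 to 4. TET-MYCN 3 was the highest library and TET-MYCN 2 the lowest, and without TET-MYCN 3 the other TET-MYCN libraries lay inside the range of the Rb-null ones or just under it. The group difference was 0.11, and it was 0.01 without TET-MYCN 3. The summed CPM of the genes was 2633, 2430, 3443 and 2701 in TET-MYCN 1 to 4, and 2538, 2460, 2560 and 2851 in Rb-null 1 to 4.

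Gene by gene, the same library led. TET-MYCN 3 held the highest value of the 8 libraries for 67 of the 76 members (88.2%), against 22.0% of all genes. It lay above all 4 Rb-null libraries for 72 members (94.7%), against 32.4% of all genes. TET-MYCN 1, 2 and 4 did so for 22, 3 and 24 members (28.9%, 3.95% and 31.6%). Over all genes these shares were 29.9%, 24.9% and 33.8%, so the members were near them in TET-MYCN 1 and 4. TET-MYCN 2 lay below all 4 Rb-null libraries for 26 members (34.2%), against 20.5% of all genes. Of the 9 members whose highest value was elsewhere, TET-MYCN 4 led for 4 (Mrpl16, Mrpl12, Mrps5, Mrpl4), Rb-null 4 for 4 (Mrpl49, Mrpl46, Mrps2, Mrpl10) and TET-MYCN 1 for 1 (Mrpl19).

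Without TET-MYCN 3, the values of the members no longer leaned toward the TET-MYCN group. Positive values then numbered 36 of 76, against 50.3% of all genes, and the median was -0.01, with 0.00 over all genes. Of the 68 members positive with all 8 libraries, 32 were then negative. Again 0 members passed edgeR's test, against 1.52% of all genes, and 4 members at higher and 2 at lower values had an unadjusted p under 0.05, against 24.1% of all genes in either direction.

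**Figure D2:**
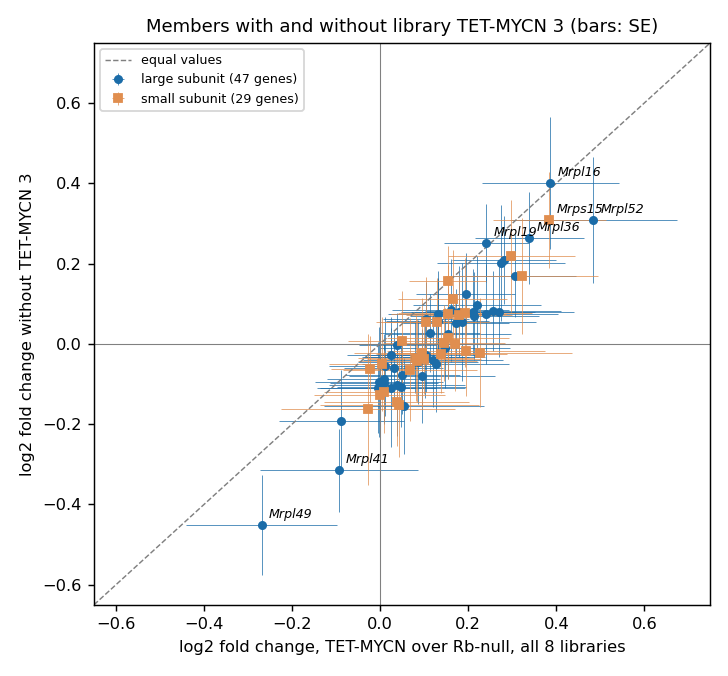
Log2 fold change (TET-MYCN over Rb-null) of each of the 76 genes with all 8 libraries (x axis) and without TET-MYCN 3 (y axis), with SE bars; circles are large and squares small subunit genes. Nearly all points lie under the dashed line of equal values, and the y values scatter around 0.

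TET-MYCN 3 was also high, on average, for genes with short transcripts. Over all tested genes with a transcript length, its mean deviation from each gene's average was 0.51 on the log2 scale for transcripts under 500 bases and fell with each longer class to -0.40 at 5000 bases or more. Rb-null 4 ran the same way over a smaller span, 0.11 to -0.10, and the other libraries the opposite way. Mitochondrial ribosomal protein transcripts are short, with a median of 1221 bases (440 to 6073). In TET-MYCN 3 the 30 members under 1000 bases lay 0.45 above their average, while 1205 other genes under 1000 bases lay 0.33 above theirs. The 46 longer members lay 0.31 above their average in TET-MYCN 3. Over all tested genes, members included, the class that starts at 1000 bases lay 0.22 above its average in TET-MYCN 3. Every longer class lay lower than that. Of all counts that HTSeq, the read counter, gave for this library, 12.8% were in its class for alignment to more than 1 place. That class held 9.15% to 9.73% in the other TET-MYCN libraries and 9.05% to 11.7% in Rb-null libraries. The class outside genes held 15.1% in TET-MYCN 3, against 17.7% to 19.7% in all others. These are shares of the counter's totals and need not equal shares of reads. When the length trend of each library was removed, 56 of 76 members were positive, with a median of 0.07, and 0 passed the test (smallest adjusted p 0.197 by edgeR's quasi-likelihood test). The share and median over all genes under this fit are not given here, so these values cannot be set against them. What part length plays in the members' values was not tested further.

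**Figure D3:**
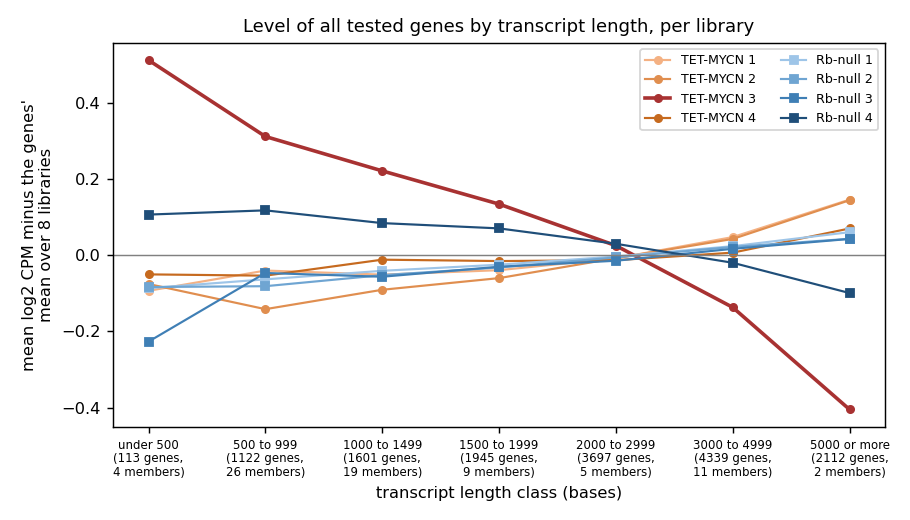
Mean deviation of log2 CPM from each gene's mean over 8 libraries (y axis) for all tested genes in 7 transcript length classes (x axis), 1 line a library. TET-MYCN 3 falls from 0.51 to -0.40 across the classes, and the other lines stay much nearer to 0.

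Among members with a small p, 4 large subunit proteins with bacterial counterparts kept most of their value without TET-MYCN 3. Mrpl36, whose protein lies in the large subunit, had 26.5, 22.8, 30.2 and 25.5 CPM in TET-MYCN 1 to 4, against 19.4, 19.5, 20.4 and 23.8 CPM in Rb-null 1 to 4. The groups overlapped only where TET-MYCN 2 fell under Rb-null 4, and the log2 fold change was 0.34 ± 0.12 (SE; edgeR adjusted p = 0.243), or 0.26 without TET-MYCN 3. Mrpl19 had 29.96, 26.4, 27.8 and 29.7 CPM in TET-MYCN 1 to 4, against 25.1, 24.5, 23.5 and 23.3 CPM in Rb-null 1 to 4. Every TET-MYCN library was above every Rb-null one, and its log2 fold change of 0.24 ± 0.10 (SE; edgeR adjusted p = 0.276) was 0.25 without TET-MYCN 3, which was not the highest library here. Its exons share 1962 bases with Gcfc2 on the other strand, so with unknown strand reads of both genes cannot be told apart. Mrpl16 had 17.4, 14.5, 16.7 and 20.4 CPM in TET-MYCN 1 to 4, against 13.9, 15.3, 10.6 and 12.9 CPM in Rb-null 1 to 4. TET-MYCN 2 lay under Rb-null 2, and the log2 fold change was 0.39 ± 0.16 (SE; edgeR adjusted p = 0.277), or 0.40 without TET-MYCN 3. Mrpl34 had 45.3, 39.2, 53.5 and 48.5 CPM in TET-MYCN 1 to 4, against 35.4, 40.3, 35.7 and 42.0 CPM in Rb-null 1 to 4. TET-MYCN 2 lay inside the Rb-null range and the other TET-MYCN libraries above it, with a log2 fold change of 0.28 ± 0.12 (SE; edgeR adjusted p = 0.293), or 0.21 without TET-MYCN 3.

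Mrpl52, a large subunit protein found in mitochondria only, had the largest log2 fold change. It had 24.0, 22.0, 37.5 and 28.2 CPM in TET-MYCN 1 to 4, against 18.5, 21.0, 16.1 and 24.2 CPM in Rb-null 1 to 4. TET-MYCN 3 was highest by far and TET-MYCN 1 and 2 lay under Rb-null 4; the log2 fold change of 0.48 ± 0.19 (SE; edgeR adjusted p = 0.267) was 0.31 without TET-MYCN 3. Its transcript, at 440 bases, is the shortest of the members. Mrpl15, which has a bacterial counterpart, had 0.31 ± 0.14 (SE) with all libraries and 0.17 without TET-MYCN 3.

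In the small subunit, Mrps15, a protein with a bacterial counterpart, came nearest to the threshold. It had 27.6, 22.4, 32.0 and 29.1 CPM in TET-MYCN 1 to 4, against 20.6, 23.2, 20.1 and 21.3 CPM in Rb-null 1 to 4. TET-MYCN 2 lay under Rb-null 2, and the other TET-MYCN libraries lay above every Rb-null one. The log2 fold change was 0.38 ± 0.13 (SE; unadjusted p = 0.0136, adjusted p = 0.220 by edgeR's quasi-likelihood test), or 0.31 without TET-MYCN 3. Mrps35, found in mitochondria only, had a log2 fold change of 0.30 ± 0.14 (SE), and Mrps6, which has a bacterial counterpart, 0.32 ± 0.17; without TET-MYCN 3 these were 0.22 and 0.17. Mrps6 shares exon bases with Slc5a3 on its own strand. Mrps5 and Mrps9, both with bacterial counterparts, had 0.15 ± 0.09 and 0.18 ± 0.12, and Mrps30 had 0.16 ± 0.12 (SE each); without TET-MYCN 3 these were 0.16, 0.07 and 0.11.

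The members with negative values are few. Mrpl49, a large subunit protein found in mitochondria only and the member with the highest CPM, had 100, 98.4, 146 and 86.7 CPM in TET-MYCN 1 to 4, against 123, 107, 142 and 148 CPM in Rb-null 1 to 4. TET-MYCN 3 sat among the highest Rb-null libraries and the other TET-MYCN libraries under all of them. The log2 fold change was -0.27 ± 0.17 (SE; edgeR adjusted p = 0.476), and -0.45 ± 0.13 (adjusted p = 0.0934) without TET-MYCN 3. Mrpl49 shares 91 exon bases with Syvn1 on the other strand. Mrpl41, also found in mitochondria only, had 31.3, 30.6, 50.8 and 29.8 CPM in TET-MYCN 1 to 4, against 35.1, 35.1, 38.2 and 43.5 CPM in Rb-null 1 to 4. TET-MYCN 3 was the highest of all libraries and the other TET-MYCN libraries the lowest of all, so the log2 fold change of -0.09 ± 0.18 became -0.32 ± 0.10 (SE; edgeR adjusted p = 0.124) without it. Mrpl46 and Mrps10 had -0.09 ± 0.14 and -0.03 ± 0.20 (SE), or -0.19 and -0.16 without TET-MYCN 3.

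Levels differed far more between members than between groups. Mean CPM over all libraries spanned 7.81-fold between members. Per kilobase of transcript, levels spanned 20.6-fold, with a median of 26.1 CPM per kb, and this span also depends on the annotated lengths. Mrps33, a small subunit protein found in mitochondria only, was highest at 105 CPM per kb in TET-MYCN and 95.2 CPM per kb in Rb-null, then Mrps21, Mrpl49, Mrpl20 and Mrpl34 (means over all libraries 86.4, 77.4, 75.3 and 70.0 CPM per kb). Mrpl47 was lowest at 4.89 CPM per kb in TET-MYCN and 4.81 CPM per kb in Rb-null, with Mrps25 at 4.97 and Mrpl19 at 5.26 CPM per kb over all libraries; all of these have long annotated transcripts, so a shorter isoform in use would raise their values. Neighbours in the order of levels were not tested against each other. Mrps33 showed a log2 fold change of 0.14 ± 0.15, Mrpl28 of 0.13 ± 0.12, Mrpl22 of 0.09 ± 0.17 and Mrpl47 of 0.02 ± 0.17 (SE). Without TET-MYCN 3 these were -0.02, 0.06, -0.08 and -0.11, so the sign turned for all but Mrpl28.

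The Mrps18 paralogs code for related proteins, each in its own place in the ribosome. Mrps18a had a log2 fold change of 0.15 ± 0.13, Mrps18b of 0.00 ± 0.12 and Mrps18c of 0.23 ± 0.21 (SE), and these were 0.07, -0.05 and -0.02 without TET-MYCN 3. Reads shared between paralogs were not split here, and Mrps18b overlaps Gm16279 over 638 exon bases on the other strand. In all, 25 members share exon bases with another gene in GENCODE, 21 of them with one on the opposite strand, and 5 pseudogenes are named after members, so those counts are less certain.

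The balance of the subunits hardly differed between libraries. The large subunit genes made up 65.8%, 65.5%, 65.4% and 65.04% of the members' CPM in TET-MYCN 1 to 4, and 65.9%, 65.3%, 65.7% and 65.6% in Rb-null 1 to 4. Large minus small mean log2 CPM was 0.194 ± 0.020 in TET-MYCN and 0.191 ± 0.016 in Rb-null libraries (SD, n = 4 each). The difference of 0.003 was well inside the spread between libraries, TET-MYCN 3 included, where both subunits were 0.37 above their average. Mrps30 and Mrps18a are known to lie in the large subunit in spite of their symbols; counted there, large minus small was 0.198 ± 0.023 in TET-MYCN and 0.191 ± 0.021 in Rb-null libraries.

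**Figure D4:**
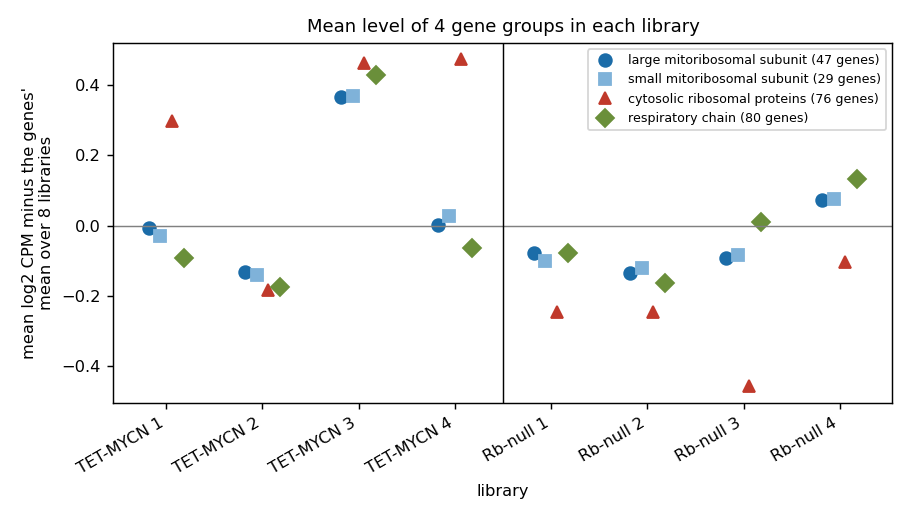
Mean log2 CPM of 4 gene groups minus their mean over the 8 libraries (y axis) in each library (x axis, TET-MYCN left); each point is 1 library. Both mitoribosomal subunits sit on top of each other in every library and, like the respiratory chain, are highest in TET-MYCN 3, whereas cytosolic ribosomal proteins are also high in TET-MYCN 1 and 4.

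Related gene groups are set beside the members, with no test between groups. Cytosolic ribosomal protein genes were positive for 76 of 76 tested, with a median log2 fold change of 0.53, and for 75 of 76 with 0.48 without TET-MYCN 3. With all libraries 0 of them passed edgeR's test, and 71 had an unadjusted p under 0.05, against 15.8% of all genes. Their mean log2 CPM was 8.30, 7.82, 8.46 and 8.47 in TET-MYCN 1 to 4, against 7.75, 7.75, 7.54 and 7.90 in Rb-null 1 to 4, so TET-MYCN 2 alone lay in the Rb-null range. The Timm and Tomm genes, for protein import into mitochondria, were positive for 19 of 20, with a median of 0.14, and for 14 of 20 with 0.04 without TET-MYCN 3. Respiratory chain genes were positive for 58 of 80, with a median of 0.05, and for 9 of 80 with -0.10 without it. Of these, Ndufa4l2, a hypoxia-responsive relative of a complex IV subunit, passed the test: 90.0, 76.9, 51.8 and 106 CPM in TET-MYCN 1 to 4, against 21.4, 14.3, 14.0 and 11.9 CPM in Rb-null 1 to 4, a log2 fold change of 2.39 ± 0.25 (SE; edgeR adjusted p = 0.0301).

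Genes of the mitochondrial ribosome outside the Mrpl and Mrps names were set beside the members as well. The 7 ribosomal proteins under other names (Gadd45gip1, Dap3, Ptcd3, Chchd1, Ict1, Aurkaip1, Mrp63) were all positive, with a median of 0.16, and 4 of 7 were positive with 0.04 without TET-MYCN 3. Of 25 genes for assembly of the ribosome, 17 were positive (median 0.04) and 0 passed the test. Without TET-MYCN 3, 11 were positive and 14 negative (median -0.03). With all 8 libraries, 4 of the 25 had an unadjusted p under 0.05 in edgeR's test, against 15.8% of all genes. Groups did not overlap, with TET-MYCN higher, for 3 of the 25, against 4.36% of all genes. C1qbp, a mitochondrial matrix protein that binds RNA, had 86.6, 66.5, 84.6 and 77.7 CPM in TET-MYCN 1 to 4, against 57.6, 59.3, 50.5 and 60.8 CPM in Rb-null 1 to 4. Its groups did not overlap, with a log2 fold change of 0.47 ± 0.11 (SE; edgeR adjusted p = 0.158) and 0.43 without TET-MYCN 3. Noa1, a GTPase needed for small subunit assembly, also had groups that did not overlap, 34.8 ± 1.89 CPM in TET-MYCN and 27.2 ± 1.90 CPM in Rb-null (SD, n = 4 each), a log2 fold change of 0.36 ± 0.10 (SE; edgeR adjusted p = 0.170).

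Mitochondrial translation factors, genes that copy or transcribe mitochondrial DNA and regulators of mitochondrial biogenesis held 0 genes that passed edgeR's test. At an unadjusted p under 0.05 the 3 lists held 0, 1 and 1 genes, against 15.8% of all genes. Translation factors were positive for 9 of 15 (median 0.06) and genes of mitochondrial DNA expression for 6 of 10 (median 0.14), and without TET-MYCN 3 for 8 of 15 (median 0.06) and 6 of 10 (median 0.07). Tfam, which packages mitochondrial DNA and starts its transcription, had a log2 fold change of 0.21 ± 0.10 (SE), or 0.14 without TET-MYCN 3. Among 11 regulators, 7 were positive (median 0.06), or 6 without TET-MYCN 3 (median 0.01): Nrf1 had 0.11 ± 0.10, Gabpa 0.09 ± 0.11 and Yy1 0.06 ± 0.10, while Ppargc1a, a coactivator of mitochondrial biogenesis, had -0.52 ± 0.22 and Ppargc1b -0.88 ± 0.44 (SE).

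Markers of several cell types leaned to 1 side in log2 fold change. The summed CPM of each list, which the most abundant genes carry, overlapped between the groups. In mean log2 CPM the groups did not overlap for progenitor markers (5.21 to 5.74 in TET-MYCN, 4.34 to 5.08 in Rb-null). Nor did they for Müller glia markers (7.49 to 8.08 in TET-MYCN, 8.21 to 8.54 in Rb-null), while the other marker lists overlapped. The part of these markers in the members' values was not tested. The 14 rod markers were negative for 14 of 14, with a median log2 fold change of -1.09, and summed to 3464 to 8301 CPM in TET-MYCN and 5184 to 21952 CPM in Rb-null libraries. The 18 cycling markers were positive for 18 of 18 (median 0.39; 3358 to 4210 CPM in TET-MYCN and 2022 to 3987 CPM in Rb-null libraries), and 10 of 12 progenitor markers were positive (median 0.79; 1300 to 1632 CPM in TET-MYCN and 1374 to 1647 CPM in Rb-null). The 8 Müller glia markers were negative for 7 (median -0.41; 3675 to 5245 CPM in TET-MYCN and 4724 to 6419 CPM in Rb-null). The 16 tested lens markers were negative for 15 (median -3.48; 14.3 to 69.6 CPM in TET-MYCN and 31.3 to 710 CPM in Rb-null), and 7 of 10 macrophage markers were positive (median 0.03; 305 to 534 CPM in TET-MYCN and 264 to 558 CPM in Rb-null). Without TET-MYCN 3, 3 of 10 macrophage markers were positive (median -0.18), and the other marker lists kept the sign of their median. None of these lists held a gene that passed edgeR's test with all 8 libraries. Without TET-MYCN 3, 3 Müller glia and 2 progenitor markers passed it, against 1.52% of all genes. At an unadjusted p under 0.05 with all 8 libraries were 9 of 14 rod, 10 of 18 cycling and 8 of 12 progenitor markers. So were 4 of 8 Müller glia, 14 of 16 lens and 1 of 10 macrophage markers, against 15.8% of all genes. Groups did not overlap, with TET-MYCN higher, for 5 cycling and 4 progenitor markers, against 4.36% of all genes. With TET-MYCN lower they did not overlap for 4 Müller glia, 1 rod and 1 progenitor marker, against 3.29%. In whole tissue, fewer cells of a type and less RNA per cell cannot be told apart.

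The 5 members with an E-box in their promoter had values of many sizes. Mrpl36, described above, had the largest log2 fold change of the 5, then Mrps18c at 0.23 ± 0.21, Mrpl20 at 0.05 ± 0.18, Mrpl37 at 0.04 ± 0.09 and Mrpl2 at 0.01 ± 0.13 (SE). Without TET-MYCN 3 those of the last 4 were -0.02, -0.16, 0.00 and -0.09. Mrpl32, shown for its NRF1 matches, had 0.15 ± 0.14 (SE) with all libraries and 0.02 without TET-MYCN 3.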

How the data were processed

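Poly(A)-selected RNA of 8 libraries was sequenced. The authors deposited raw read counts per gene, made with CASAVA 1.8.2, TopHat2 2.0.8b and HTSeq 0.5.4p3 on mm9 per the submitters' processing notes; neither the annotation nor the strand setting is stated in those sources. The HTSeq summary rows, 28.3% to 31.7% of the HTSeq total of each library, were left out. Counts were filtered (filterByExpr), TMM-scaled and tested with edgeR 4.0.16 (quasi-likelihood F test, robust, group only, R 4.3.3, adjusted p threshold 0.05). The SE is the log2 fold change divided by the square root of F. Mean log2 CPM used a prior count of 2. DESeq2 1.42.0, limma-voom (limma 3.58.1), other scalings and filters, libraries left out and a replicate block were alternatives. The code was tested on simulated data.

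Named members were, by rule, the 6 smallest p in each subunit, the 4 lowest fold changes, the 3 highest and 3 lowest CPM and the Mrps18 paralogs; Mrps21, Mrps25, Mrpl20, those leading in other libraries those shown for promoters, Tfam and the promoter factors were added after their values were seen. Members and lists were chosen with earlier results of these data known. Transcript length is the median over a gene's coding transcripts in GENCODE vM21 (GRCm38), a build other than that of the counts, so no positions are given other than those of the RefSeq promoters on their own build. Within a group, pairs of libraries differed beyond counting noise (chi-square per degree of freedom 18.1 to 76.3). A count of 3 equals 0.130 to 0.202 CPM, and the members had 162 to 2601 reads a library. Figures were drawn with matplotlib 3.10.9.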

Additional observations from a re-analysis of the deposited data

Results flagged for a closer look

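In TET-MYCN 3 Mrpl41 reached 50.81 CPM, while the other TET-MYCN libraries had 29.76 to 31.26 CPM, a gap of 0.929 of the group's range, which sets this library apart from the other 3. This was 1 of 54 groups of 4 libraries checked, and chance alone flags about 1 group in 20. The Rb-null libraries had 35.1 to 43.5 CPM.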

How the results depend on the processing

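No member was called under any other setting that was tested gene by gene; another prior count was applied only to the mean log2 CPM. The count of all genes called (9) was 17 with no filter on low counts, 539 with DESeq2, 0 with limma-voom, 3 with the replicate block, 0 with the length trend of each library removed, 0 without Rb-null 2 and 3, 41 without Rb-null 1 and TET-MYCN 3, and 0 to 230 with 1 library left out (230 without TET-MYCN 3, 132 without TET-MYCN 2). The replicate numbers gave no sign of a pairing. Same-numbered libraries deviated with correlations of -0.040 to -0.295, and libraries of unlike number with -0.244 to 0.448. With 4 libraries a group this check cannot exclude a pairing. With the block 0 members were called and 65 were positive.

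With 1 library left out, positive members numbered 36 to 73, their median was -0.00700 to 0.170 (large -0.00321 to 0.174, small -0.017 to 0.165), the difference of mean log2 CPM 0.011 to 0.173, and groups that did not overlap 1 to 12 higher and 0 to 2 lower. All the lowest values of these, medians and positive counts, came without TET-MYCN 3. Without Rb-null 1 and TET-MYCN 3, 33 members were positive, the medians were -0.019, -0.00895 (large) and -0.042 (small), the difference -0.012, and 2 members lay wholly higher and 3 lower. Without Rb-null 2 and 3, 4 lay wholly higher. Without TET-MYCN 3 and Rb-null 4, a choice made after seeing the data, as was removal of the length trend, 6 lay wholly higher and 2 lower, 47 members were positive, their median was 0.020 and the difference 0.049. Counts of members wholly higher or lower with libraries left out are given without the share over all genes. Smaller groups separate more easily, so these counts cannot be set against the shares from all 8 libraries.

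Small log2 fold changes turned round. Mrps18b became -0.00245 (DESeq2 size factors), -0.00298 (DESeq2), -0.00553 (limma-voom), -0.00176 (replicate block), -0.081 (without Rb-null 1 and TET-MYCN 3), -0.018 (without Rb-null 2 and 3), -0.023 (without TET-MYCN 3 and Rb-null 4), -0.072 (length trend removed), and -0.050 to 0.068 with 1 library left out. Mrpl47 became -0.048, -0.120 and -0.086 under the same 3 pairs left out, and -0.109 to 0.097 with 1 library left out. Mrpl22 became -0.113 without Rb-null 1 and TET-MYCN 3, -0.033 without TET-MYCN 3 and Rb-null 4, -0.029 with the length trend removed and -0.080 to 0.173 with 1 library left out. Without Rb-null 1 and TET-MYCN 3, Mrps33 became -0.043 and Mrps18c -0.052. With 1 library left out Mrps33 ran from -0.025 to 0.201, Mrps18c from -0.022 to 0.342 and Mrps10 from -0.163 to 0.071. The causes were not tested. With 4 libraries a group, changes of the size of the SEs could not be resolved; the part of sequencing depth in those SEs was not tested.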
